A study of Mus musculus with 7 samples.

Results

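The SOX transcription factors examined here are 10 genes of neural tissue, Sox1, Sox2, Sox3, Sox4, Sox5, Sox6, Sox9, Sox10, Sox11 and Sox12, taken by symbol from gene counts of 7 mouse Group 3 medulloblastomas (G3 MBs). All 10 symbols were found among the 34592 genes counted, and all 10 were among the 17389 genes that passed the filter on low counts and were tested. SOX proteins bind DNA through a high-mobility-group (HMG) box and are sorted into subgroups by the likeness of that box. In the developing brain, SoxB1 proteins hold neural progenitors in an undifferentiated state, SoxC proteins act in young neurons, and SoxD and SoxE proteins act in the formation of glia. Sox12 belongs to SoxC with Sox4 and Sox11, and the protein of each of these genes carries an activation domain at its C-terminal end.

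The study compared tumors with enforced expression of human WDR11 (WDR11OE), a gene for a WD-repeat protein, with control tumors. All 7 tumors grew from G3 MB tumorsphere line # 19568. This line goes back to granule neuron progenitors of Trp53-/-; Cdkn2c-/- mice aged 7 days, which had been given Myc and GFP by a retrovirus. For the WDR11OE group, cells of the line were infected with a lentivirus that drives WDR11 and copGFP from the EF1 promoter, were not sorted, and were grown in the cortex of CD1-nu/nu mice until the mice were moribund. The 4 WDR11OE libraries carry the treatment label WDR11 overexpression. The 3 control libraries carry the treatment label none, while the study's methods give them the empty vector, and they share the line, the Myc virus and the host with the WDR11OE libraries. Tumor chunks can hold cells of the host brain and vessels besides tumor cells, and a smaller number of cells of a type cannot be told apart from less RNA per cell in such bulk RNA.

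Total counts were 35463784, 41397427 and 33417175 in control replicates 1 to 3, and 42252257, 85371523, 32116095 and 87141305 in WDR11OE replicates 1 to 4. The 2 top genes took from 7.05% to 8.89% of the counts in controls and from 9.98% to 12.5% in WDR11OE libraries, without overlap. The part of this difference in the SOX results was not tested. Levels are given as CPM, counts scaled to a common library total with the TMM method. A gene at 3 counts, taken here as the floor of detection, lies between 0.0329 and 0.0924 CPM depending on the library. The sample names of control and WDR11OE libraries come from separate runs of numbers, so the condition and the set of libraries cannot be told apart. The labels do not say that each library came from its own mouse, and the titles of WDR11OE replicates 1 and 2 share a number. Every p-value therefore measures the spread between these libraries alone.

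A row for human WDR11 was read first, as a check of the labels. It held 73, 92 and 102 counts in control replicates 1 to 3, or 2.03, 2.19 and 3.13 CPM. In the libraries labelled WDR11OE it held 185, 169, 99 and 57 counts, or 4.38, 2.11, 3.05 and 0.624 CPM. WDR11OE replicate 1 was above every control, replicates 2 and 3 were within the control range, and replicate 4 was below every control. The log2 fold change of this row (hWDR11) was 0.05 with a standard error (SE) of 0.58 (adjusted p = 0.961, edgeR's quasi-likelihood test, Benjamini-Hochberg method). How this row was made, and how reads were divided between it and mouse Wdr11, is not given in the sources used here. Mouse Wdr11 was at 58.9, 58.3 and 59.3 CPM in controls and at 66.8, 61.0, 65.7 and 68.9 CPM in WDR11OE replicates 1 to 4, without overlap but also without a call (log2 fold change 0.16, SE 0.06, adjusted p = 0.0910 from the edgeR test). The study reports more WDR11 transcript by PCR in tumors of this kind, which was not analysed here, and lower Myc. In the counts Myc was lower (log2 fold change −1.40, SE 0.20, adjusted p = 0.00227 from the edgeR test). The genes named in the genotype of the line had reads in all 7 tumors. Trp53 was between 27.8 and 53.9 CPM and Cdkn2c between 15.2 and 26.8 CPM. Counts per gene do not show which part of a gene the reads cover, and their source was not tested. As the human row does not follow the labels, the groups are called by their labels throughout, and a gene called lower is lower in libraries labelled WDR11OE. Values of Sox12, Sox9 and Sox4 are also given without WDR11OE replicate 4.

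Sox12, Sox9 and Sox4 were lower in the tumors labelled WDR11OE, and the other 7 SOX genes did not pass the test. The 3 of 10 genes lower at an adjusted p under 0.05 (edgeR's quasi-likelihood test, Benjamini-Hochberg method) stand beside 15.8% of the 17389 genes tested, and the 0 of 10 higher stand beside 18.1%. The latter share depends on single tumors, as the number of all genes higher was 3150 with all 7 tumors and 1560 without WDR11OE replicate 1. None of the 10 was higher at an unadjusted p under 0.05, with limma-voom or with DESeq2, and 4 were lower at an unadjusted p under 0.05 and with DESeq2. Over all genes, DESeq2 called 3361 lower and 3101 higher, and limma-voom 2681 and 3079, against 2744 and 3150 in edgeR. These numbers also stand beside the counts of the lists below. The number of all genes at an unadjusted p under 0.05 is not given here. The study's rule for calls was also applied, here to the edgeR fit. It adds a fold change of 2 or more and, as given in the study's supplement, an average log2 CPM above 0. Sox12 and Sox9 were then called lower beside 3.45% of all genes, and 0 were called higher beside 2.36%. The ranges of the groups did not overlap for 4 SOX genes with lower values, Sox12, Sox9, Sox4 and Sox6, beside 19.1% of all genes, and for 0 with higher values, beside 23.5%. The median log2 fold change was −0.37 over the 10 genes and 0.08 over all genes tested. Without WDR11OE replicate 4, 3 SOX genes were again lower, and without control replicate 2 the number was 2, as Sox4 then missed the threshold.

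**Figure D1:**
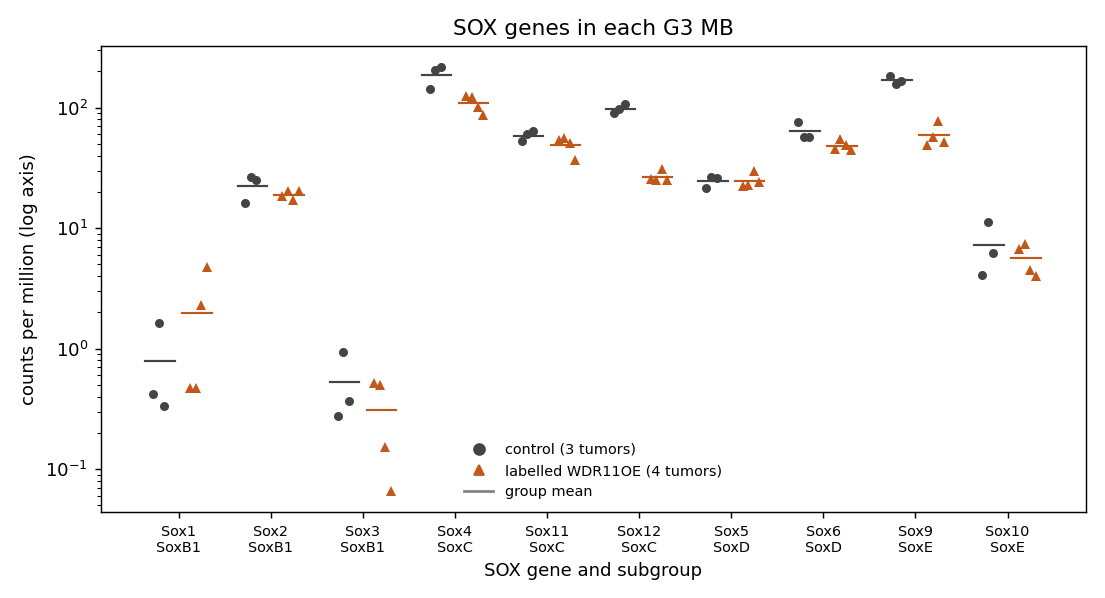
Level of each of the 10 SOX genes in each tumor, in CPM on a log axis, with genes sorted by subgroup. Circles are the 3 control tumors, triangles the 4 tumors labelled WDR11OE, and lines the group means. Sox12 lies between 89.5 and 108 CPM in controls and between 25.0 and 30.8 CPM in the tumors labelled WDR11OE.

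Among the SoxC genes, Sox12 was lower by the widest margin. Sox12 (ENSMUSG00000051817) was measured at 89.5, 97.6 and 108 CPM in control replicates 1 to 3, and at 25.8, 25.3, 30.8 and 25.0 CPM in WDR11OE replicates 1 to 4. Every control was above every tumor labelled WDR11OE, and within a group the highest and lowest tumors differed by 1.21-fold in the controls and 1.23-fold in the other group. The mean was 98.3 ± 9.27 CPM (SD, n = 3) against 26.7 ± 2.74 CPM (SD, n = 4), a level 3.68-fold higher in controls, with a log2 fold change of −1.88, an SE of 0.10 and an adjusted p of 0.000637 (edgeR's quasi-likelihood test, Benjamini-Hochberg method). Two-sided exact permutation of the 7 tumors over the 35 divisions into 4 and 3 gave p = 0.0286, the smallest p this design allows. With WDR11OE replicate 4 left out, the log2 fold change was −1.85.

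Sox4, which acts with Sox11 in the differentiation of neurons, was measured at 143, 205 and 217 CPM in controls, and at 124, 122, 102 and 87.2 CPM in WDR11OE replicates 1 to 4. The groups did not overlap, and control replicate 1 lay nearest to the tumors labelled WDR11OE. The log2 fold change was −0.79 (SE 0.18, adjusted p = 0.0132, edgeR's quasi-likelihood test, Benjamini-Hochberg method), and exact permutation gave p = 0.0286. Without WDR11OE replicate 4 it was −0.70. Without control replicate 2 it was −0.73, and the adjusted p of the same edgeR test was 0.0523. Sox11 was measured at 52.6, 60.1 and 63.5 CPM in controls, and at 53.6, 56.4, 50.9 and 36.8 CPM in WDR11OE replicates 1 to 4. The groups overlapped, with WDR11OE replicate 4 the lowest of the 7 tumors. Its log2 fold change was −0.25 (SE 0.15, adjusted p = 0.254 from the edgeR test), −0.13 without WDR11OE replicate 4, and 0.19 once the trend of each library with GC content was removed.

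The SoxC genes differed in how far apart the groups were. The log2 ratio of Sox12 to Sox4, in which library scaling cancels, was −0.68, −1.07 and −1.01 in control replicates 1 to 3 and −2.26, −2.26, −1.73 and −1.80 in WDR11OE replicates 1 to 4. The difference of the group means was −1.10, and the groups did not overlap. The log2 ratio of Sox12 to Sox11 was above 0 in every control, at 0.77, 0.70 and 0.77, and below 0 in every tumor labelled WDR11OE, at −1.05, −1.15, −0.72 and −0.56, a difference of −1.62. Sox4 to Sox11 had log2 ratios of 1.44, 1.77 and 1.77 in controls against 1.21, 1.11, 1.01 and 1.24, a difference of −0.52, which became −0.91 once the GC trend described below was removed. Each of the 3 ratios gave p = 0.0286 by two-sided exact permutation, and 0.0286 after Benjamini-Hochberg adjustment over the 3 exact tests. This is the smallest p the design allows, and the ratios are not independent, as 2 of them give the last. Of single genes, 19.1% were lower and 23.5% higher without overlap of the groups. The share for pairs of genes is not given here. Of the reads on the SoxC genes, Sox12 took 31.4%, 26.9% and 27.8% in controls and 12.7%, 12.5%, 16.8% and 16.8% in the other tumors. The share of Sox11 was between 16.3% and 18.4% in controls and between 24.7% and 27.7% in tumors labelled WDR11OE. Sox4 took from 50.2% to 56.5% and from 55.6% to 61.0%, with overlap.

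**Figure D2:**
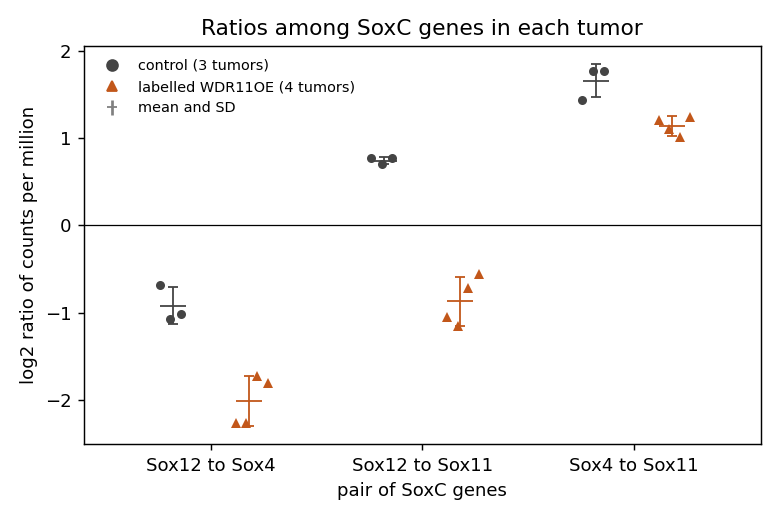
Log2 ratio of CPM for each pair of SoxC genes in each tumor. Circles are controls, triangles are tumors labelled WDR11OE, and crosses with bars give the group mean and SD. The groups are apart in every pair, and the Sox12 to Sox11 ratio changes sign between them.

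Sox12 lies on the minus strand of chromosome 2 of NCBIM37, from 152219347 to 152223782, with 2 exons of 4172 bases in all and no annotated exon of another gene over them. Its exons hold 59.7% GC, where the median is 49.8% over genes whose average log2 CPM exceeds 0. Across 14761 such genes the log2 fold change was lower at higher GC content (Spearman rho −0.387, across genes, which are not independent replicates). Once this trend was removed, the log2 fold change of Sox12 was −1.50 (adjusted p = 0.00158, edgeR's quasi-likelihood test, Benjamini-Hochberg method). Sox11 has a GC content of 62.8% and Sox4 one of 51.1%, and without the trend the difference was −1.69 for Sox12 to Sox11, −0.78 for Sox12 to Sox4 and −0.91 for Sox4 to Sox11, so that the order of the last 2 turned. Sox4 (listed as Sox4.13.n and matched by symbol to ENSMUSG00000076431) lies on chromosome 13 from 29040788 to 29045582. Its exon shares 405 bases with another gene model on its own strand, also named Sox4 (ENSMUSG00000078309), and 2616 bases with Gm17419 on the opposite strand. As the match was by symbol, the exon length and GC content of Sox4 depend on the model used. The strand setting of the counting is not given in the sources used here, so reads of Sox4 and Gm17419 cannot be told apart. Sox11, on chromosome 12 from 28025562 to 28027574, is annotated with only 2013 bases of exon.

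Of the genes beside Sox12 that have a row in the counts, the 3 nearest on each side were read for comparison. Zcchc3, the nearest on the side of higher coordinates and 13910 bases away, was measured at 43.2, 45.4 and 49.5 CPM in controls and between 27.6 and 34.6 CPM in tumors labelled WDR11OE. It was lower as well, with a log2 fold change of −0.51 (SE 0.10, adjusted p = 0.00690, edgeR's quasi-likelihood test, Benjamini-Hochberg method), a smaller difference than that of Sox12. Gm14165, a pseudogene on the other side, was below 1 CPM in every tumor, with a log2 fold change of −1.14 (adjusted p = 0.0414 from the edgeR test). Nrsn2, a neuronal gene 16973 bases from Sox12, ranged from 0.0237 CPM to 3.82 CPM and had overlapping groups, as had 6820408C15Rik, which did not exceed 1.07 CPM. Gm14164 and Gm14158 had 1 count each in WDR11OE replicate 2 and 0 in the other 6 tumors.

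Promoters of the SoxC genes are shown because these genes differed unequally between the groups. They come from RefSeq (GRCm38.p6) and cover the 250 bases before the annotated start, with 7 of the 10 genes matched by symbol and Sox3, Sox9 and Sox10 named only. Each is written 5′ to 3′ on the minus strand, and capitals mark CCAAT or its reverse complement.
Sox4: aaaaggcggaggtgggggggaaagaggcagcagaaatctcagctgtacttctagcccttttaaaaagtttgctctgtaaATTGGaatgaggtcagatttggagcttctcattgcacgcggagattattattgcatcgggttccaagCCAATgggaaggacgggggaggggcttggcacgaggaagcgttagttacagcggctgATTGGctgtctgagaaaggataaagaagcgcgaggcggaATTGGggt
Sox11: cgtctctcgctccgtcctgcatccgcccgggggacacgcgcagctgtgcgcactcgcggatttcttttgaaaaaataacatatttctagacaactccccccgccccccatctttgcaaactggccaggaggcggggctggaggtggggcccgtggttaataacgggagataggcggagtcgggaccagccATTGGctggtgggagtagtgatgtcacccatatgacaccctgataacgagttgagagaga
Sox12: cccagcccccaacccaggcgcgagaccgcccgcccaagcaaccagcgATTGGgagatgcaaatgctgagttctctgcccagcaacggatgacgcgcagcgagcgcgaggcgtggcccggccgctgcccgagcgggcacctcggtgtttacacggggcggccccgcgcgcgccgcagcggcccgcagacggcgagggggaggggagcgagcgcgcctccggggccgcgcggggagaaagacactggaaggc
The windows are chr13:28953700-28953949 for Sox4, chr12:27342719-27342968 for Sox11 and chr2:152398047-152398296 for Sox12. CCAAT was found 4 times for Sox4, 1 time for Sox11, where it starts 60 bases before the gene, and 1 time for Sox12, 203 bases before it, and 34.5% of 27025 promoters hold it on either strand. The letters CACGTG (E-box, in 6.05% of promoters), AACAAT (SOX core, 9.65%) and CTTTGA (TCF/LEF core, 14%) were in none of the 7 windows on either strand. The GC content of the window was 74.4% for Sox12, at percentile 95.7 of all promoters, 58.0% for Sox11 and 50.8% for Sox4.

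Of the SoxE genes, Sox9, a factor of glial fate and neural stem cells, was lower and Sox10, a factor of the oligodendrocyte lineage, was not called. Sox9 (ENSMUSG00000000567, chromosome 11 from 112643538 to 112649074) was measured at 183, 158 and 168 CPM in controls, and at 49.1, 56.8, 78.1 and 51.6 CPM in WDR11OE replicates 1 to 4. Every control was above every tumor labelled WDR11OE, and replicate 3 was the highest of the latter. The level was 2.88-fold higher in controls, with a log2 fold change of −1.53, an SE of 0.16 and an adjusted p of 0.00112 (edgeR's quasi-likelihood test, Benjamini-Hochberg method), and two-sided exact permutation gave p = 0.0286. Without WDR11OE replicate 4 the log2 fold change of Sox9 was −1.47. Removal of the GC trend left it at −1.53, and the exons of Sox9 hold 49.3% GC. Sox10 was measured at 4.09, 11.2 and 6.25 CPM in controls, and at 6.68, 7.41, 4.53 and 3.99 CPM in WDR11OE replicates 1 to 4. Control replicate 2 was the highest and the groups overlapped (log2 fold change −0.35, SE 0.38, adjusted p = 0.528 from the edgeR test), with a value of 0.09 once the GC trend was removed, 0.13 without control replicate 2 and −0.63 without control replicate 1. The share of Sox10 in the reads of this pair was between 2.18% and 6.63% in controls and between 5.48% and 12% in the other tumors.

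The SoxD genes Sox5 and Sox6 encode proteins that lack a known activation or repression domain and act with SoxE proteins. Sox6 was measured at 75.8, 57.6 and 57.0 CPM in controls, and at 45.1, 54.8, 49.4 and 44.2 CPM in WDR11OE replicates 1 to 4. The groups did not overlap, but control replicates 2 and 3 lay close to WDR11OE replicate 2. The log2 fold change was −0.39 (SE 0.13) with an adjusted p of 0.0501 (edgeR's quasi-likelihood test, Benjamini-Hochberg method), on the threshold, and the exact permutation test gave p = 0.0571. Over the alternative settings the adjusted p of Sox6 ranged from 0.0163 to 0.239 in edgeR, limma-voom or DESeq2. Without control replicate 1, Sox6 had a log2 fold change of −0.25, and with the trend on exon length removed one of −0.23. Sox5 was measured between 21.4 and 26.8 CPM in controls and between 22.3 and 30.0 CPM in tumors labelled WDR11OE, and the groups overlapped. Sox5 had a log2 fold change of 0.01 (SE 0.14), a value whose sign turned with the scaling, to −0.04 with DESeq2 size factors, and it was −0.15 with the GC trend removed and 0.21 with the trend on exon length removed. An exon of Sox5 shares 1330 bases with 4933415D12Rik on the opposite strand.

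The SoxB1 genes were represented by Sox2, while Sox1 and Sox3 were low. Sox2, a factor of neural stem cells, was measured at 16.1, 26.8 and 24.9 CPM in controls, and at 18.4, 20.3, 17 and 20.2 CPM in WDR11OE replicates 1 to 4. Control replicate 1 was the lowest of all 7 tumors and the groups overlapped. The log2 fold change was −0.25 (SE 0.18, adjusted p = 0.336, edgeR's quasi-likelihood test, Benjamini-Hochberg method), and without control replicate 1 it was −0.45 with an adjusted p of 0.0292 from that edgeR test. Without control replicate 2 it was −0.11 (adjusted p = 0.722 from the edgeR test), and with the GC trend removed −0.16, so the value of Sox2 rests on single controls. Sox1, listed under the RefSeq identifier NM_009233 and without a match in the annotation, was at 0.417, 1.62 and 0.337 CPM in controls and at 0.474, 0.474, 2.31 and 4.72 CPM in the other tumors. WDR11OE replicates 3 and 4 were the highest, and replicates 1 and 2 lay within the control range. The log2 fold change of Sox1 was 1.32 with an SE of 0.98 (adjusted p = 0.350 from the edgeR test), and it was 0.41 without WDR11OE replicate 4 and 2.40 without control replicate 2. Sox3, an X-linked gene, was at 0.930 CPM or less in every tumor, and WDR11OE replicate 4, at 0.0657 CPM, was the lowest (log2 fold change −0.77, SE 0.76, adjusted p = 0.484 from the edgeR test). This value became −0.06 without control replicate 2, −1.17 without WDR11OE replicate 2, −0.40 without WDR11OE replicate 4 and −0.29 with the GC trend removed.

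Per kilobase of exon, where genes can be set side by side, Sox9 and Sox4 were the most abundant SOX genes of the list in controls, with means of 41.0 and 39.3 CPM per kb and overlapping ranges. Sox11 followed at 29.2 CPM per kb (26.1 to 31.5) and Sox12 at 23.6 CPM per kb (21.4 to 25.9), which were apart, while Sox11 overlapped with Sox4 (29.9 to 45.3). Sox2 at 9.18 CPM per kb and Sox6 at 7.17 CPM per kb overlapped, and Sox10, Sox5 and Sox3 were at 2.65, 1.72 and 0.255 CPM per kb, with overlap of Sox10 and Sox5. Sox1 has no annotated exon length and so no such value. In tumors labelled WDR11OE the order was Sox11 at 24.6 CPM per kb, Sox4 at 22.7, Sox9 at 14.2, Sox2 at 7.73, Sox12 at 6.41, Sox6 at 5.47, Sox10 at 2.08, Sox5 at 1.73 and Sox3 at 0.150. Sox9 (11.9 to 18.9) overlapped here with both Sox11 and Sox4, which overlapped with each other, as did Sox10 and Sox5, and Sox12 (5.99 to 7.39 CPM per kb) overlapped with both Sox2 and Sox6. The value of Sox11 depends on its short annotated exon, and that of Sox4 on the gene model used.

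The other SOX genes were read from a list of 10, of which 6 were tested, 3 were lower (Sox7, Sox18 and Sox13) and 0 were higher in edgeR's quasi-likelihood test, Benjamini-Hochberg method, in limma-voom and in DESeq2. Of all genes tested, 15.8% were lower and 18.1% higher in edgeR. At an unadjusted p under 0.05, 3 were lower and 1 was higher (Sox8). Their median log2 fold change was −0.51, beside 0.08 over all genes tested. Sox18, a factor of blood and lymph vessels, was the most abundant of the list per kilobase and was measured at 87.8, 104 and 110 CPM in controls, and at 44.8, 53.2, 48.6 and 31.0 CPM in WDR11OE replicates 1 to 4. The groups did not overlap, and the log2 fold change was −1.18 (SE 0.18, adjusted p = 0.00310 from the edgeR test), and −0.78 (adjusted p = 0.0101 from that edgeR test) once the GC trend was removed. Sox7, of the same SoxF subgroup, was between 1.47 and 1.84 CPM in controls and between 0.537 and 0.770 CPM in the other tumors, with a log2 fold change of −1.29. Sox17, the remaining SoxF gene, was at 1.14 CPM or less and had overlapping groups.

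Sox13, a SoxD gene like Sox5 and Sox6, fell from a range of 7.42 CPM to 10.1 CPM in controls to one of 4.42 CPM to 5.38 CPM, a log2 fold change of −0.94 (SE 0.17, adjusted p = 0.00533, edgeR's quasi-likelihood test, Benjamini-Hochberg method), and of −0.55 with an adjusted p of 0.0512 once the GC trend was removed. Sox8, a SoxE gene like Sox9 and Sox10, had the highest log2 fold change of the list, 0.37 (SE 0.13, adjusted p = 0.0704 from the edgeR test). It passed as higher with the GC trend removed (0.53, adjusted p = 0.0189 from the edgeR test) and without WDR11OE replicate 4 (0.46, adjusted p = 0.0117 from that test), over alternatives whose adjusted p ran from 0.0117 to 0.286. Sox8 was measured at 20.3, 24.9 and 22.9 CPM in controls, and at 31.8, 31.1, 30.8 and 23.5 CPM in WDR11OE replicates 1 to 4, so that replicate 4 alone lay within the control range. The values of Sox8 and Sox9 thus lay on opposite sides of the controls in WDR11OE replicates 1 to 3. Sox21 was between 0.370 and 0.835 CPM in all 7 tumors, and its exon shares 713 bases with Gm4675 on the opposite strand. Sox15, Sox14 and Sox30 were at 0.166 CPM or less and were not tested, and Sry was at 0 in every tumor, which allows up to 0.0924 CPM in the smallest library.

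**Figure D3:**
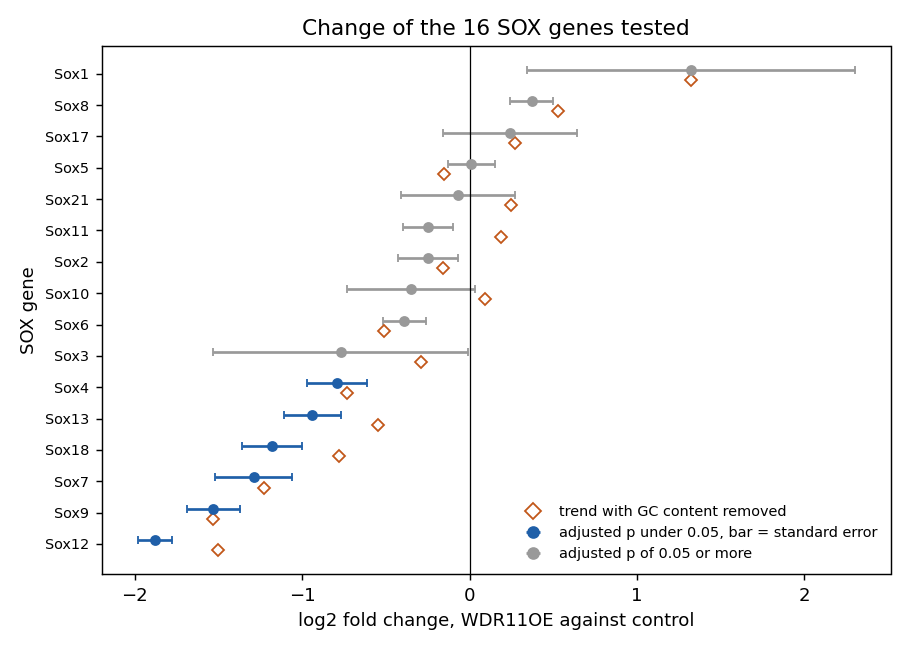
Log2 fold change (WDR11OE against control) of the 16 SOX genes tested. Filled points with bars are the fitted value and its standard error, blue where the adjusted p is under 0.05, and open diamonds are the value with the trend on GC content removed. Sox12 moves from −1.88 to −1.50 and Sox9 stays at −1.53, while Sox5, Sox10, Sox11 and Sox21 cross 0.

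Genes that SOX proteins act with or upon were read as lists. Each count of calls stands beside 15.8% of all genes lower and 18.1% higher in edgeR, so that a count of 0 or 1 in lists this short says little. Of 7 tested SoxC target and young neuron genes, 0 passed in either direction (edgeR's quasi-likelihood test, Benjamini-Hochberg method, and limma-voom), 1 was lower at an unadjusted p under 0.05 and with DESeq2, and the median log2 fold change was 0.15. Tead2, a known target of SoxC proteins and the most abundant of them per kilobase, was lower in every tumor labelled WDR11OE (77.3 CPM to 114 CPM) than in controls (126 CPM to 163 CPM), with a log2 fold change of −0.47 and an adjusted p of 0.0518 in edgeR's quasi-likelihood test. Dcx, a microtubule protein of young neurons, had the highest log2 fold change, 2.11, with an SE of 1.14, and was at 62.0 CPM in WDR11OE replicate 4 against 12.3 CPM or less in the other 6 tumors. Of 6 POU and PAX partner factors, 0 passed by edgeR or limma-voom, and Pou2f1 was lower with DESeq2 and at an unadjusted p under 0.05. The median log2 fold change of these partners was −0.09, between −0.37 for Pou2f1, the most abundant per kilobase, and 0.17 for Pou3f3.

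Of 6 neural progenitor genes, 2 were lower and 1 was higher in edgeR and limma-voom, beside 15.8% and 18.1% of all genes in edgeR, and 3 were lower and 1 higher with DESeq2 and at an unadjusted p under 0.05. Msi1, an RNA-binding protein of neural stem cells, was measured at 29.4, 35 and 29.3 CPM in controls and between 6.13 and 8.68 CPM in tumors labelled WDR11OE (log2 fold change −2.07, SE 0.15, adjusted p = 0.000858, edgeR's quasi-likelihood test, Benjamini-Hochberg method). Fabp7, a lipid carrier of radial glia, was higher with a log2 fold change of 1.31 (adjusted p = 0.0253 from the edgeR test), and Vim, the most abundant per kilobase, was lower with −0.47 (adjusted p = 0.0342 from the edgeR test) although its groups overlapped. The median was −0.22. Sox2 and Nes, a filament protein of the same progenitors (log2 fold change 0.04), did not pass.

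Of 6 glial fate factors, 4 were lower (Nfia, Nfib, Nfix and Nkx2-2) and 0 were higher in edgeR's quasi-likelihood test, limma-voom and DESeq2, beside 15.8% lower and 18.1% higher of all genes in edgeR, with 4 lower and 0 higher at an unadjusted p under 0.05 and a median log2 fold change of −1.11. Nfix, the most abundant of them per kilobase, had the lowest log2 fold change, −1.54 (SE 0.14, adjusted p = 0.00104 from the edgeR test). Nfia (log2 fold change −1.45), whose transcription Sox9 is known to induce in glial precursors, was at 137, 161 and 184 CPM in controls and between 52.1 and 73.1 CPM in tumors labelled WDR11OE. Olig2 had the highest value, 0.05. Of the 4 TCF/LEF factors, which carry an HMG box like SOX proteins, Tcf7l1 and Tcf7l2 were lower and 0 were higher by the same 3 tools, again beside 15.8% and 18.1% of all genes in edgeR, with 3 lower and 0 higher at an unadjusted p under 0.05 and a median of −1.06. Tcf7l1, the most abundant per kilobase, had a log2 fold change of −2.15 and Lef1 one of −0.11.

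The tumors differed in markers of other cell types, and these values are given beside the SOX genes they could bear on. Bulk RNA does not show which cells the reads came from, and tumor cells as their source was not tested. Counts of calls in these lists again stand beside 15.8% of all genes lower and 18.1% higher in edgeR. Of 8 oligodendrocyte markers, Pdgfra and Cspg4 were lower and 0 were higher by edgeR's quasi-likelihood test, limma-voom, DESeq2 or an unadjusted p under 0.05. Both are used as marks of precursors, but whether their reads came from precursors was not tested. Of other genes of this lineage, Nkx2-2 was lower (log2 fold change −1.40). Sox10, Olig1 and Olig2 were not called by edgeR (−0.35, −0.39 and 0.05). The 8 markers had a median log2 fold change of −0.41, and their summed level was 1070, 1020 and 806 CPM in controls and 605, 567, 608 and 669 CPM in WDR11OE replicates 1 to 4, with no overlap. This gap rests on Cspg4, as the sums of the other 7 genes overlapped. Cspg4 was the most abundant per kilobase, with 502 CPM to 532 CPM in controls and 217 CPM to 353 CPM in the other tumors. Mobp had the lowest log2 fold change, −0.88. The part of these cells in the differences of Sox9 and Sox12 was not tested.

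Astrocyte markers summed to 623, 580 and 360 CPM in controls and to 233, 237, 474 and 859 CPM in WDR11OE replicates 1 to 4. Of these 6 genes, 1 was higher, a share near that of all genes (S100b, the most abundant per kilobase, log2 fold change 0.94) and 0 were lower by the 3 tools or at an unadjusted p under 0.05, with a median log2 fold change of 0.05 and the lowest value, −1.23, for Slc1a2. WDR11OE replicate 4 held the highest astrocyte sum and replicates 1 and 2 the lowest. Sox9 was at 49.1, 56.8, 78.1 and 51.6 CPM in WDR11OE replicates 1 to 4. The part of astrocyte RNA in the differences of Sox9 and Sox12 was not tested.

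Cortical neuron markers, which mark neurons of the cortex, the site of the graft, summed to 459, 166 and 86.1 CPM in controls and to 21.6, 35.8, 213 and 672 CPM in WDR11OE replicates 1 to 4. The median log2 fold change of these 8 genes was 0.08. Camk2a had the lowest log2 fold change, −1.66, and Gad1 the highest, 2.28, while Snap25, the most abundant per kilobase, went from 1.28 CPM in WDR11OE replicate 1 to 141 CPM in replicate 4. Gad1, an enzyme of GABAergic neurons, was at 59.2 and 209 CPM in WDR11OE replicates 3 and 4 and at 27.1 CPM or less elsewhere, and Sox1 was highest in the same 2 tumors. Whether the Sox1 reads came from these cells was not tested. Of 6 granule lineage markers 3 were tested and 0 passed in either direction by edgeR or limma-voom. Their median log2 fold change was 0.41. Zic2, with a log2 fold change of 0.78, was higher with DESeq2 and at an unadjusted p under 0.05, and Zic1, the most abundant per kilobase, had the lowest log2 fold change, −0.52. Atoh1, which defines granule neuron progenitors, was at 0 in all 7 tumors, Barhl1 had 1 count in 1 tumor, and Gabra6 did not exceed 0.197 CPM.

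Endothelial markers summed to 88.2, 120 and 110 CPM in controls and to 83.6, 74.6, 74.8 and 72.4 CPM in WDR11OE replicates 1 to 4, without overlap. This gap rests on Cdh5, as the sums of the other 5 genes overlapped. Of these 6 genes, Cdh5, the most abundant per kilobase, was lower (log2 fold change −1.02) and 0 were higher by edgeR and limma-voom, while DESeq2 and an unadjusted p under 0.05 each gave 3 lower and 0 higher. A count of 1 of 6 is near the share of all genes called lower in edgeR. DESeq2 called more of all genes lower, 3361 against 2744 in edgeR, and the number at an unadjusted p is not given here. The median log2 fold change was −0.32, and Pecam1 had the highest value, 0.12. The part of vessel cells in the difference of Sox18 was not tested. Microglia markers gave 0 of 7 in either direction by these tools and at an unadjusted p under 0.05, with a median log2 fold change of −0.05 and values from −0.71 for Cd68 to 0.92 for Aif1 on the log2 scale, with Tmem119 the most abundant per kilobase. Their sums overlapped between the groups (96.3 CPM to 145 CPM against 73.6 CPM to 143 CPM).

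Muscle markers separated the groups as Sox12 did, in the opposite direction. They summed to 3.14, 4.46 and 2.48 CPM in controls and to 71.6, 38.6, 101 and 33.9 CPM in WDR11OE replicates 1 to 4, and 5 of 6 were higher and 0 lower by edgeR, limma-voom, DESeq2 or an unadjusted p under 0.05, with a median log2 fold change of 7.45, beside 18.1% of all genes higher in edgeR. Mb, the myoglobin gene, had 0 counts in all 3 controls and between 99 and 155 counts in the other tumors, Acta1 was the most abundant per kilobase, and Des, at a log2 fold change of 0.45, did not pass. Counts of the 5 called genes varied less than the totals over the 4 libraries labelled WDR11OE. Acta1 was at 696, 705, 764 and 725 counts and Myh4 at 1084, 1030, 1176 and 1089. Tnnt3 ran from 513 to 552 counts and Ckm from 423 to 544, and Mb had the range given above. The order of the muscle sums in CPM thus follows library size, with the highest sum in replicate 3, the smallest library. The part of muscle RNA in the SOX results was not tested.

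Among the genes most like Sox12 over the 7 tumors, by Pearson correlation of log2 CPM, were Col3a1 and Fkbp1a (each r = 0.999) and Csk and Ipo4 (each r = 0.997), out of 14806 genes with an average log2 CPM above 0. As both groups stand apart for Sox12, such an r includes the difference between the groups, and 986 genes reached 0.95 or more. Col3a1, a fibrillar collagen, was measured at 2720, 2930 and 3260 CPM in controls and between 1050 and 1230 CPM in tumors labelled WDR11OE. Fkbp1a, an immunophilin, was at 132, 141 and 157 CPM against 60.8 CPM to 71.1 CPM. The genes were picked by this r, so a likeness to Sox12 in the order of the tumors comes with the choice. For each of these 4 genes, as for Sox12, control replicate 3 was the highest control and WDR11OE replicate 3 the highest of its group. Of the other SOX genes in this comparison, Sox9 had r = 0.978 with Sox12, Sox4 0.873, Sox6 0.739, Sox11 0.59, Sox2 0.449, Sox10 0.27, Sox5 0.09 and Sox1 −0.356 (n = 7 tumors, as a description).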

How the data were processed

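Raw counts of 34592 genes in 7 tumors were deposited by the authors, who had aligned reads to NCBIM37 (mm9) through StrongArm and assigned them to GENCODE genes by HT-seq. The submitters' processing notes also list CASAVA 1.7, STAR and BWA. The labels name an RNA kit that does not mark strand and the study's methods name stranded sequencing. Raw counts were tested here in R 4.3.3 with edgeR 4.0.16 (filterByExpr, TMM, glmQLFit, glmQLFTest, condition as the only term, two-sided), with Benjamini-Hochberg adjustment over 17389 genes and an adjusted p under 0.05. The fit was tested on simulated data. CPM has no prior count, and log2 CPM has a prior count of 2. Single values were compared by two-sided exact permutation.

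Members and lists were chosen with earlier results of these data known. Genes named are the 10 SOX genes, other SOX genes with a count, and, of each list, the lowest and highest log2 fold change and the most abundant per kilobase, plus 3 annotated genes on each side of Sox12 and the 5 genes that correlate best with it. Others were named after their values were seen. Some single genes chosen by these rules, and the calls of the cortical neuron list, are not reported here. Map2 was found under its older symbol Mtap2. Coordinates, exon length and GC content come from a GENCODE annotation of NCBIM37, to which 33867 rows (97.9%) were matched, 33606 by identifier and 261 by symbol. Chi-square per degree of freedom between libraries of a group was 21.1 or more, far above sampling noise. The lowest value was that of WDR11OE replicates 1 and 2, whose Pearson correlation was 0.993. WDR11OE replicate 4 had correlations of 0.887 with replicate 1, 0.902 with replicate 2 and 0.971 with replicate 3. Pairs of a control and a WDR11OE library ran from 0.889 to 0.95.

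The alternatives were limma 3.58.1 with voom (the study's method), DESeq2 1.42.0, scaling by library size, upper quartile or DESeq2 size factors, no filter, a filter of 1 CPM in 3 tumors, removal of the trend with GC content or exon length, the study's rule for calls, ratios without a prior count, and leaving out each tumor. The floor of 3 counts covers counting error only, since reads carry no molecular identifiers.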

Additional observations from a re-analysis of the deposited data

Results flagged for a closer look

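Values of 3 SOX genes stood apart within the 4 tumors labelled WDR11OE, by the gap of a tumor to its nearest neighbour over the range of the group on the log2 CPM scale. Of 24 groups of values examined this way, 3 passed the limit, and chance gives about 5%. Sox12 had a gap of 0.84 of the range, as WDR11OE replicate 3 was at 30.8 CPM and the others between 25.0 and 25.8 CPM, and its log2 fold change without that replicate was −1.95. Sox8 had a gap of 0.893, with replicate 4 at 23.5 CPM below the others at 30.8 CPM to 31.8 CPM, and without replicate 4 its log2 fold change was 0.46 with an adjusted p of 0.0117 (edgeR's quasi-likelihood test, Benjamini-Hochberg method), against an adjusted p from 0.0117 to 0.286 over all its alternatives. Sox21 had a gap of 0.875, with replicate 3 at 0.370 CPM below the others at 0.646 CPM to 0.699 CPM, and without replicate 3 its log2 fold change was 0.09.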

How the results depend on the processing

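No paired analysis was possible because the labels give the 2 groups no shared replicate numbers. Over the 16 alternatives, the log2 fold change of Sox12 stayed between −1.95 and −1.50 with an adjusted p of at most 0.0064 (edgeR, limma-voom or DESeq2), and that of Sox9 between −1.69 and −1.47. The number of SOX genes lower was between 2 and 4, and the number higher was 0 in each alternative. Sox6 joined the lower genes with DESeq2, library size scaling, DESeq2 size factors, no filter, removal of the GC trend, or without WDR11OE replicate 2, while its log2 fold change shrank to −0.25 without control replicate 1 and −0.23 with the length trend removed. Sox2 joined the lower genes without control replicate 1 and was −0.11 without control replicate 2. The differences in log2 ratio kept their sign in 9 alternatives each. Exact permutation cannot reach 0.05 once a tumor is left out, where its smallest p is 0.0667 or 0.1. Of 253 log2 fold changes of 16 SOX genes under alternatives, 227 kept direction and side of the threshold, 9 passed the threshold anew, 2 no longer passed it (Sox4 and Sox13) and 15 changed sign.

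Sox5 changed sign to −0.01 with limma-voom and with the 1 CPM filter, −0.04 with DESeq2 and with DESeq2 size factors, −0.05 with no filter and −0.15 with the GC trend removed, was 0.21 with the length trend removed, and ran from −0.10 to 0.07 with a tumor left out. Removal of the GC trend took Sox10 to 0.09, Sox11 to 0.19 and Sox21 to 0.25. With a tumor left out, Sox10 ran from −0.63 to 0.13, Sox17 from 0.03 to 0.56 and Sox21 from −0.29 to 0.17. Among all genes tested, 3150 were higher, against 2093 with no filter and 1560 to 2986 with a tumor left out (1560 without WDR11OE replicate 1, 1657 without WDR11OE replicate 2, 2045 without control replicate 2). The cause of these shifts was not tested.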

Other observations

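Sox2 lies within an intron of the noncoding gene Sox2ot. Sox2ot was at 5.36, 7.27 and 3.89 CPM in control replicates 1 to 3 and at 3.5, 2.78, 5.52 and 18 CPM in WDR11OE replicates 1 to 4. WDR11OE replicate 4 was the highest, while Sox2 was at 20.2 CPM there, within the range of the other tumors. The log2 fold change of Sox2ot was 0.44 with an SE of 0.66 (adjusted p = 0.658, edgeR's quasi-likelihood test, Benjamini-Hochberg method).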
